A study of Mus musculus with 4 samples.

Results

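The genes described here encode the axoneme of motile cilia, the microtubule shaft that makes a cilium beat, and the proteins that preassemble its motors. They were taken by name from the table of lung RNA levels, as every row whose symbol starts with Cfap, Dnah, Dnaaf, Dnaic, Dnali, Tekt, Rsph or Drc followed by a digit. This gave 53 of 46603 genes, and the 51 with a mean level of at least 0 log2 CPM over the 4 libraries were tested among 15996 genes. The names are older symbols in part, so some axonemal genes are not among the 53 and are given as a separate list.

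Total RNA of lung tissue was sequenced in 2 WT and 2 SA samples from mice of the C57BL/6 background, littermates aged 6 to 8 weeks, whose number is not labelled. WT mice carried normal Ifnar1, a chain of the type I interferon receptor, and SA mice carried the Ifnar1 S526A allele, in which alanine replaces a serine of that chain. Mice of both genotypes had intravenous injections of 100 µl of medium in which B16F10 mouse melanoma cells had grown, at 3 per week over 3 weeks. Untreated lungs were not analysed here, and the series concerns tumour-derived factors, the receptor and neutrophil chemokines, not cilia. The allele changes a residue of the protein and need not alter its mRNA, so RNA levels do not check the genotype labels.

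In the airways, motile cilia sit on multiciliated epithelial cells and move mucus towards the throat. Outer dynein arms drive the beat and inner dynein arms shape it, while radial spokes, the central apparatus and the nexin-dynein regulatory complex pass control signals to the arms. Tektins and other microtubule inner proteins stiffen the doublet microtubules from within, and cytoplasmic factors fold and join the dynein chains before they are carried into the cilium. In bulk tissue, a change in the number of ciliated cells and a change in RNA per cell cannot be told apart.

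The libraries held 27381916 to 38378936 gene reads, and 3 reads, used as a detection floor, correspond to 0.0782 to 0.11 CPM, the read count scaled to the total of the library. Levels are log2 CPM as deposited, and differences are SA minus WT on that scale with the standard error (SE) of a limma fit across all genes tested. A gene is said to have risen or fallen only where its Benjamini-Hochberg adjusted p is under 0.05. The median difference over all genes tested was 0.07. The libraries also differed in other tissue: the summed level of the 20 cardiac muscle markers listed was 987 and 1706 CPM in the WT libraries and 2661 and 4507 CPM in the SA libraries, and pairs of values are given throughout in the order of library 1 and library 2.

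Most axonemal genes had higher levels in the SA libraries, with a median difference of 0.62 over the 51 members tested and medians of 0.22 to 0.91 in the 9 structural classes. The difference was positive in 49 of the 51 and ran from -1.02 for Dnah17 to 1.02 for Dnah5. Both SA libraries lay above both WT libraries in 44 of 51 members, as they did in 38.1% of all genes tested. Both lay below in 1 member, Dnah17, against 21.7% of all genes. The 2 groups overlapped in the other 6 members. The sign of the difference was the same under all alternative settings for 47 of 51 members, and it turned in at least 1 setting for Dnaaf5, Cfap43, Dnah8 and Rsph3a.

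No single member passed the threshold in limma. The count was 0 of 51, where 0.163% of all genes tested rose and 0.138% fell, and limma voom on the recovered reads also gave 0. At an unadjusted p under 0.05, 40 members were higher in SA and 1 was lower, where the shares over all genes were 16.8% higher and 9.56% lower. These shares, and that of 38.1% for both SA libraries above both WT libraries, are the background for all counts by class and list below. The lowest adjusted p among the members was 0.053. With each library centred on its median, 12 members passed, as did 3.77% of all genes, and with a robust variance trend 14 did, against 4.01% of all genes. With no filter on low values 38 of 53 passed, 37 higher and 1 lower, against 4.75% of 46603 genes. The median difference of the members was 0.49 under median centring and 0.41 under quantile normalization.

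The members also differed between the WT libraries. Their mean level was 3.45 and 3.64 log2 CPM in WT and 4.08 and 4.11 in SA. WT 2 lay above WT 1 in 43 of 51 members, by a median of 0.20, and SA 2 lay above SA 1 in 34, by a median of 0.07. The step between the genotypes was thus larger than the step within either of them for the members as a whole. Without WT 1 the median difference of the members was 0.51, and without WT 2 it was 0.74.

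**Figure D1:**
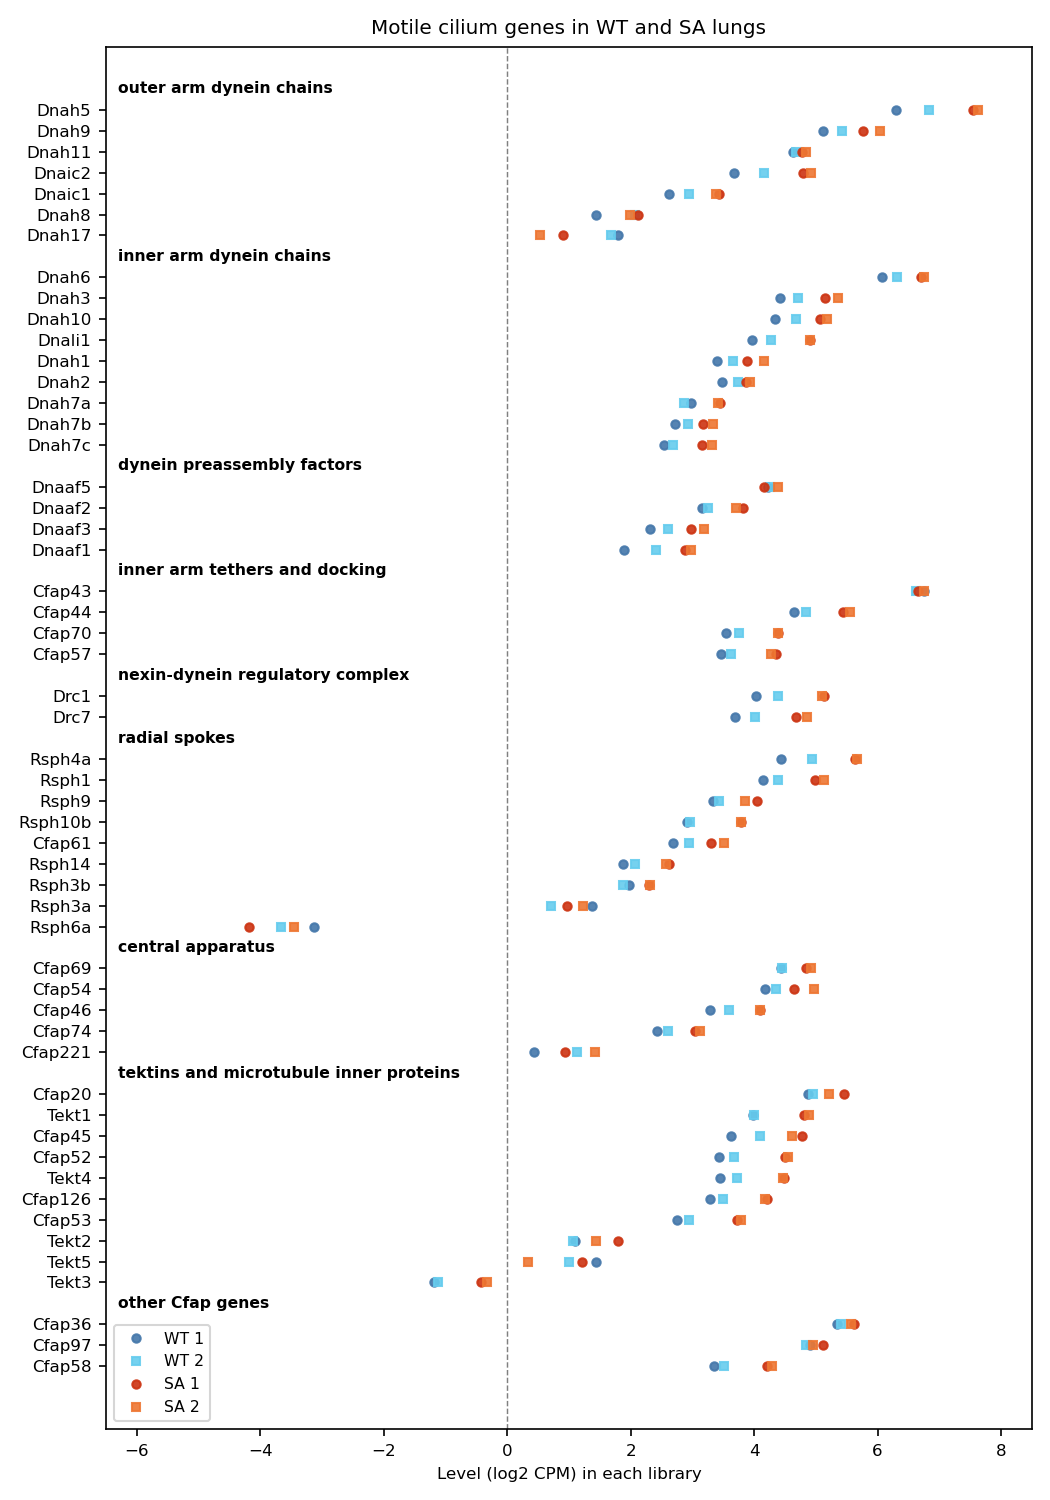
Level of each of the 53 members in each library, in log2 CPM on the horizontal axis, grouped by structural class, with the dashed line at 0 marking the limit for testing on the mean level. The SA points lie to the right of the WT points in 44 of the 51 tested members, and Dnah17 shows the opposite order.

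The promoters of some members carry the X-box, the binding motif of RFX factors, which control ciliary genes, and the sequences of several members with large and small differences are shown to give that context. In RefSeq (GRCm38.p6), 45 of the 53 members were matched, with 52 promoters of 300 bases running from 250 bases before the start to 50 after it. The motif was searched on both strands as GTNNCC followed by GNAAC, with a spacer of 3 or of 2 bases of any kind between them. At least 1 of these forms lay in 16 of the 52 promoters (30.8%), from 14 genes, and in 3.68% of 32851 mouse promoters of the same length. The forkhead motif TGTTTAC, of the family that includes Foxj1, lay in 4 of the 52 (7.69%) and in 3.65% of all promoters. The stretches below are given 5′ to 3′ on the strand of the gene, with the match in capitals, from Cfap44 (chr16:44394732-44394798, plus strand), Dnaic2 (chr11:114727346-114727418, plus strand), Cfap58 (chr19:47937613-47937705, plus strand), Dnah9 (chr11:66168581-66168673, minus strand), Cfap45 (chr1:172521071-172521129, plus strand), Dnaaf5 (chr5:139150177-139150234, plus strand) and Dnah17 (chr11:118129325-118129418, minus strand).
Cfap44: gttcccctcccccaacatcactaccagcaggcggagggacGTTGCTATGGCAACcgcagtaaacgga
Dnaic2: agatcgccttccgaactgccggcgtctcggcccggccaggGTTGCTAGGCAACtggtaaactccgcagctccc
Cfap58: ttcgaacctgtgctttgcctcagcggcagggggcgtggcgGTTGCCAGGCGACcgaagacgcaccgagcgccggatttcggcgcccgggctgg
Dnah9: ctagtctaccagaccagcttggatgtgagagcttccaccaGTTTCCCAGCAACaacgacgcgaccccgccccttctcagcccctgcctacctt
Cfap45: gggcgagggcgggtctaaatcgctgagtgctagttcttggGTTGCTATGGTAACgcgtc
Dnaaf5: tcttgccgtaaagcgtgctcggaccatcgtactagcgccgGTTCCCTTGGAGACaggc
Dnah17: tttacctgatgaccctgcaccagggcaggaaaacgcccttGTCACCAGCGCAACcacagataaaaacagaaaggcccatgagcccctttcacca
Relative to the start, the match begins at base -27 in Cfap44, -33 in Dnaic2, -59 in Cfap58, -82 in Dnah9, -19 in Cfap45, -18 in Dnaaf5 and -159 in Dnah17. The motif was thus present both in members that were higher in SA and in Dnaaf5 and Dnah17, which were not. A match is a description of these letters only, and binding was not measured.

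The outer dynein arm, which gives the beat its power, held both the largest positive and the largest negative difference of all members. Its 7 chains had a median difference of 0.62, of which 4 were higher in SA and 1 lower by an unadjusted p under 0.05, and 0 passed the threshold. Dnah5 (ENSMUSG00000022262; chr15:28203752-28472052, plus strand, GRCm38), an outer arm heavy chain whose loss causes primary ciliary dyskinesia, had levels of 6.30 and 6.84 in WT and 7.54 and 7.63 in SA. Both SA libraries were above both WT libraries, with a difference of 1.02 ± 0.19 (SE; adjusted p = 0.077, limma), or 2.03-fold. Dnaic2, an intermediate chain at the base of the arm, had 3.68 and 4.16 in WT and 4.80 and 4.92 in SA. Its groups were also apart, by 0.94 ± 0.18 (adjusted p = 0.079, limma), and the other intermediate chain, Dnaic1, differed by 0.62. In both Dnah5 and Dnaic2 the lowest library was WT 1.

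The heavy chains that pair with Dnah5 both had smaller differences than Dnah5. Dnah9, the partner of Dnah5 along the outer part of airway cilia, had levels of 5.11 and 5.42 in WT and 5.76 and 6.03 in SA, a difference of 0.63 ± 0.15 (adjusted p = 0.10, limma). Dnah11, the partner in the part near the cell, had 4.63 and 4.67 in WT and 4.77 and 4.84 in SA. Its SA libraries were the higher ones, but the difference was only 0.15 ± 0.07, with a 95% interval from -0.04 to 0.34 (adjusted p = 0.25, limma). The difference between these 2 genes' responses was not tested. On the opposite strand, Dnah11 shares 4.44% of its exon bases with Cdca7l.

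The 2 outer arm heavy chains best known from sperm flagella were low in these lungs. Dnah17 (chr11:118021723-118130634, minus strand), a heavy chain of the sperm outer arm, had 1.80 and 1.68 in WT and 0.91 and 0.53 in SA. It was the only member with both SA libraries below both WT libraries, and differed by -1.02 ± 0.21 (adjusted p = 0.086, limma). It rested on 106 reads in WT 1 and 55 in SA 2. Dnah8, the other sperm heavy chain, had 1.43 and 2.07 in WT and 2.13 and 1.98 in SA, and its groups overlapped. Of 25 sperm and spermatid markers, 8 had 0 reads in all libraries and 3 were high enough to test. The defining markers Tnp1, Prm1 and Prm2 had 0, 0 to 2 and 0 to 1 reads, under the floor of 3. The 3 tested were Odf2, which differed by 0.05, Hspa1l, by 0.54, and Crem, by -0.63 (unadjusted p = 0.011, adjusted p = 0.10, limma). Crem was lower in both SA libraries, but its 555 to 1072 reads set it apart from the defining markers.

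**Figure D2:**
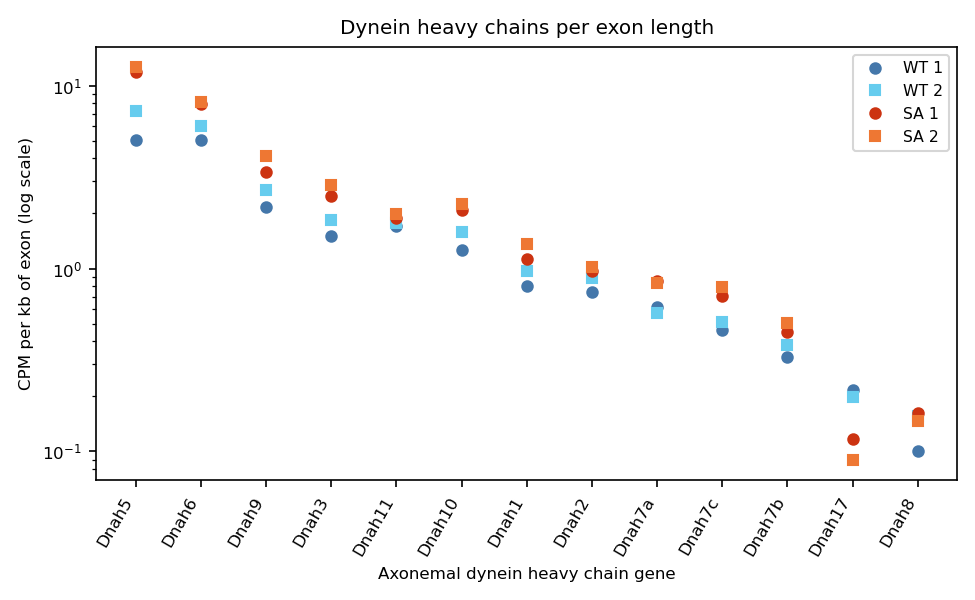
Level of each dynein heavy chain among the members per kb of exon in each library, in CPM per kb on a log axis, ordered by the mean over libraries. Dnah5 and Dnah6 lead, and Dnah17 and Dnah8 come last with means of 0.155 and 0.142 CPM per kb. The order of Dnah17 and Dnah8 rests on their annotated exon lengths.

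Per kb of exon, a scale that compares genes only as far as their annotated exon lengths are alike in meaning, the heavy chains among the members spanned a wide range. The mean over the 4 libraries was 9.24 CPM per kb for Dnah5, 6.77 for Dnah6, 3.09 for Dnah9 and 2.17 for Dnah3. Dnah11 and Dnah10 were close to each other, at 1.84 and 1.80. Dnah1 had 1.07 and Dnah2 0.907, and the 3 near-identical genes Dnah7a, Dnah7c and Dnah7b had 0.719, 0.617 and 0.415. Their annotated exons sum to 12767, 12603 and 19980 bases, and those of Dnah8 to 26820. Before division by length, Dnah7b lay above Dnah7c (means of 3.03 and 2.92 log2 CPM) and Dnah8 above Dnah17 (1.90 and 1.23). The order of these pairs per kb thus rests on annotated length. The ranges over the 4 libraries of neighbours in this order overlapped, except those of Dnah6 and Dnah9 and of Dnah7b and Dnah17. Among all members but Cfap43, the highest levels per kb were those of Rsph1, at 19.2, Cfap36, at 16.3, Tekt1, at 13.8, and Dnali1, at 11.1.

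Inner arm chains, which set the waveform, had both SA libraries above both WT libraries in all 9 members, against 38.1% of all genes tested. The median difference was 0.54, and 0 passed the threshold. At an unadjusted p under 0.05, 8 of 9 were higher, against 16.8% of all genes. Dnali1, a light chain of the single-headed inner arms, had 3.96 and 4.27 in WT and 4.91 in both SA libraries. The SA libraries were nearly equal and the difference was 0.80 ± 0.12 (adjusted p = 0.061, limma). Dnah6, the most abundant inner arm heavy chain among the members per kb, had 6.07 and 6.31 in WT and 6.71 and 6.75 in SA. The difference was 0.54 ± 0.10 (adjusted p = 0.072, limma).

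The remaining inner arm heavy chains differed by 0.29 to 0.68. Dnah3 had 4.42 and 4.72 in WT and 5.15 and 5.35 in SA, a difference of 0.68 ± 0.13 (adjusted p = 0.081, limma), and it shares 10.5% of its exon bases with Lyrm1 on the opposite strand. Dnah10, a heavy chain of the double-headed inner arm, differed by 0.62 and Dnah2, the other heavy chain of that arm, by 0.29. The Dnah7 genes, between which reads can be split, differed by 0.51 (Dnah7a), 0.43 (Dnah7b) and 0.62 (Dnah7c). Dnah1 differed by 0.49.

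For the 4 cytoplasmic factors that preassemble dynein arms the median difference was 0.60, and 3 were higher at an unadjusted p under 0.05 and 0 passed. Dnaaf1 had 1.89 and 2.40 in WT and 2.89 and 2.98 in SA. Its groups were apart, with WT 1 the lowest, and differed by 0.79 ± 0.21 (adjusted p = 0.12, limma). Dnaaf2, a co-chaperone, differed by 0.56 ± 0.10 (adjusted p = 0.073, limma) and Dnaaf3 by 0.63 ± 0.16 (adjusted p = 0.11, limma). Dnaaf5, a HEAT repeat protein of the same process, had 4.22 and 4.26 in WT and 4.15 and 4.39 in SA. Its groups overlapped, and the difference of 0.03 ± 0.11, with a 95% interval from -0.26 to 0.32, turned negative under median centring, quantile normalization and voom with median-of-ratios scaling.

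Overlapping genes limit the preassembly factors. Dnaaf1 shares 20.7% of its exon bases with Taf1c and Dnaaf2 shares 32.7% with 9330151L19Rik, both on the opposite strand. The libraries were strand-specific, but the sources used here do not give the strand setting of the counting. Dnaaf3 shares 86 exon bases (3.87%) on the same strand with Tnni3, a cardiac troponin gene that itself differed by 1.79, and the part of the shared bases in the value of Dnaaf3 was not tested.

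Tethers and docking proteins of the inner arms had separated groups in 3 of 4 genes, and a median difference of 0.74. Cfap44 (chr16:44394796-44482428, plus strand), which ties an inner arm to its doublet and whose promoter holds an X-box match among the sequences shown, had 4.65 and 4.83 in WT and 5.44 and 5.56 in SA. The gap between the groups was wider than the spread within each, and the difference was 0.76 ± 0.10 (adjusted p = 0.053, limma). Cfap57, an inner arm docking protein, differed by 0.77 ± 0.10 (adjusted p = 0.053, limma), and Cfap70, which has also been placed at other sites of the axoneme, by 0.73 ± 0.10 (adjusted p = 0.057, limma). In these data 3 of the 4 were higher at an unadjusted p under 0.05, and 0 passed.

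The remaining gene of that class, Cfap43, the partner of Cfap44 in the tether, shares its row with another gene. It had 6.76 and 6.63 in WT and 6.66 and 6.75 in SA, with overlapping groups and a difference of 0.01 ± 0.08 (adjusted p = 0.91, limma). The sign of that difference turned under median centring and under voom with median-of-ratios scaling. The identifier that carries Cfap43 in the deposited table also carries the symbol Itprip, a neighbouring gene, so its value may hold reads of both, and it is left out of comparisons of level between genes. Without it the median difference of the members was still 0.62.

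The nexin-dynein regulatory complex, which links neighbouring doublets and regulates the arms, was represented by 2 members. Drc1, a core subunit, had 4.03 and 4.38 in WT and 5.13 and 5.10 in SA. Drc7 had 3.69 and 4.01 in WT and 4.68 and 4.85 in SA. Both genes had separated groups, with differences of 0.91 ± 0.14 for Drc1 (adjusted p = 0.059, limma) and 0.92 ± 0.14 for Drc7 (adjusted p = 0.061, limma), and both were higher at an unadjusted p under 0.05. Their median, 0.91, was the largest of the classes, over these 2 genes only.

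Radial spoke genes, whose products reach from the doublets to the central apparatus, showed a median of 0.60 over the 8 tested of 9, with 7 higher at an unadjusted p under 0.05 and 0 past the threshold. Rsph1, a spoke head protein, had 4.15 and 4.39 in WT and 4.98 and 5.14 in SA, a difference of 0.79 ± 0.12 (adjusted p = 0.059, limma). Rsph4a, another head protein, had 4.44 and 4.94 in WT and 5.63 and 5.66 in SA. Its WT libraries were further apart than those of Rsph1, and the difference was 0.95 ± 0.18 (adjusted p = 0.078, limma). Rsph10b differed by 0.84 ± 0.09 (adjusted p = 0.053, limma), but its identifier also carries the symbol Pms2 and it shares 10.5% of its exon bases with Gm42421 on the same strand.

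The other spoke genes had differences of 0.05 to 0.62. Rsph9, also of the spoke head, differed by 0.57, Rsph14 by 0.62, and Cfap61, of the complex at the spoke base, by 0.59. Rsph3a and Rsph3b are close copies between which reads can be split, and they differed by 0.05 and 0.38, with overlapping groups in Rsph3a. Rsph6a, a spoke gene of sperm, had 1 to 3 reads per library, at or under the detection floor, and was not tested.

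Central apparatus genes, which encode projections of the central pair of microtubules, differed by a median of 0.55 over 5 genes, with 4 higher at an unadjusted p under 0.05 and 0 past the threshold. Cfap69 had 4.43 and 4.46 in WT and 4.83 and 4.92 in SA. The WT libraries were nearly equal, and the difference was 0.43 ± 0.07 (adjusted p = 0.066, limma). Cfap46 and Cfap74 differed by 0.65 ± 0.13 and 0.57 ± 0.12 (adjusted p of 0.082 and 0.091, limma) and Cfap54 by 0.55, and both SA libraries were above both WT libraries in each. Cfap221 had 0.44 and 1.14 in WT and 0.94 and 1.42 in SA, and its groups overlapped, with a difference of 0.39 ± 0.33 (adjusted p = 0.49, limma).

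Tektins and microtubule inner proteins showed a median of 0.83 over the 9 tested of 10, with 7 higher at an unadjusted p under 0.05 and 0 past the threshold. Tekt1 (chr11:72344722-72362442, minus strand), a filament protein of the doublet, had 3.98 and 4.0 in WT and 4.80 and 4.89 in SA. Libraries of the same genotype were nearly equal, and the difference was 0.86 ± 0.08, or 1.81-fold (adjusted p = 0.053, limma). Cfap52 had 3.43 and 3.68 in WT and 4.50 and 4.56 in SA, a difference of 0.97 ± 0.11 (adjusted p = 0.053, limma), and 8.36% of its exon bases overlap a gene on the opposite strand. Cfap53 had 2.75 and 2.94 in WT and 3.71 and 3.78 in SA, and differed by 0.91 ± 0.11 (adjusted p = 0.053, limma).

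Others of this class differed by similar amounts, with Tekt4 at 0.90, Cfap45 at 0.83 and Cfap126 at 0.81. Cfap20, a protein of the junction between the doublet's tubules that is also found outside motile cilia, had 4.87 and 4.95 in WT and 5.46 and 5.21 in SA, a difference of 0.42 ± 0.11 (adjusted p = 0.11, limma). Tekt2 differed by 0.52, with 20.8% of its exon bases overlapping Gm12945 on the opposite strand. Tekt5, a tektin of sperm, had a difference of -0.44 with overlapping groups, which was -0.0040 to -0.88 with a library left out. Tekt3 had 13 and 14 reads in WT and 20 and 30 in SA and was just under the limit for testing, with a mean of -0.76 log2 CPM, while Cfap221 was the nearest above it, at 0.98.

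The 3 Cfap genes placed in no class were split. Cfap58 had 3.34 and 3.51 in WT and 4.20 and 4.29 in SA, with separated groups and a difference of 0.82 ± 0.10 (adjusted p = 0.053, limma). Cfap36 and Cfap97 are expressed in many tissues, and they differed by 0.22 ± 0.06 and 0.16 ± 0.09 (adjusted p of 0.12 and 0.32, limma). All 3 had both SA libraries above both WT libraries, and 2 were higher at an unadjusted p under 0.05.

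**Figure D3:**
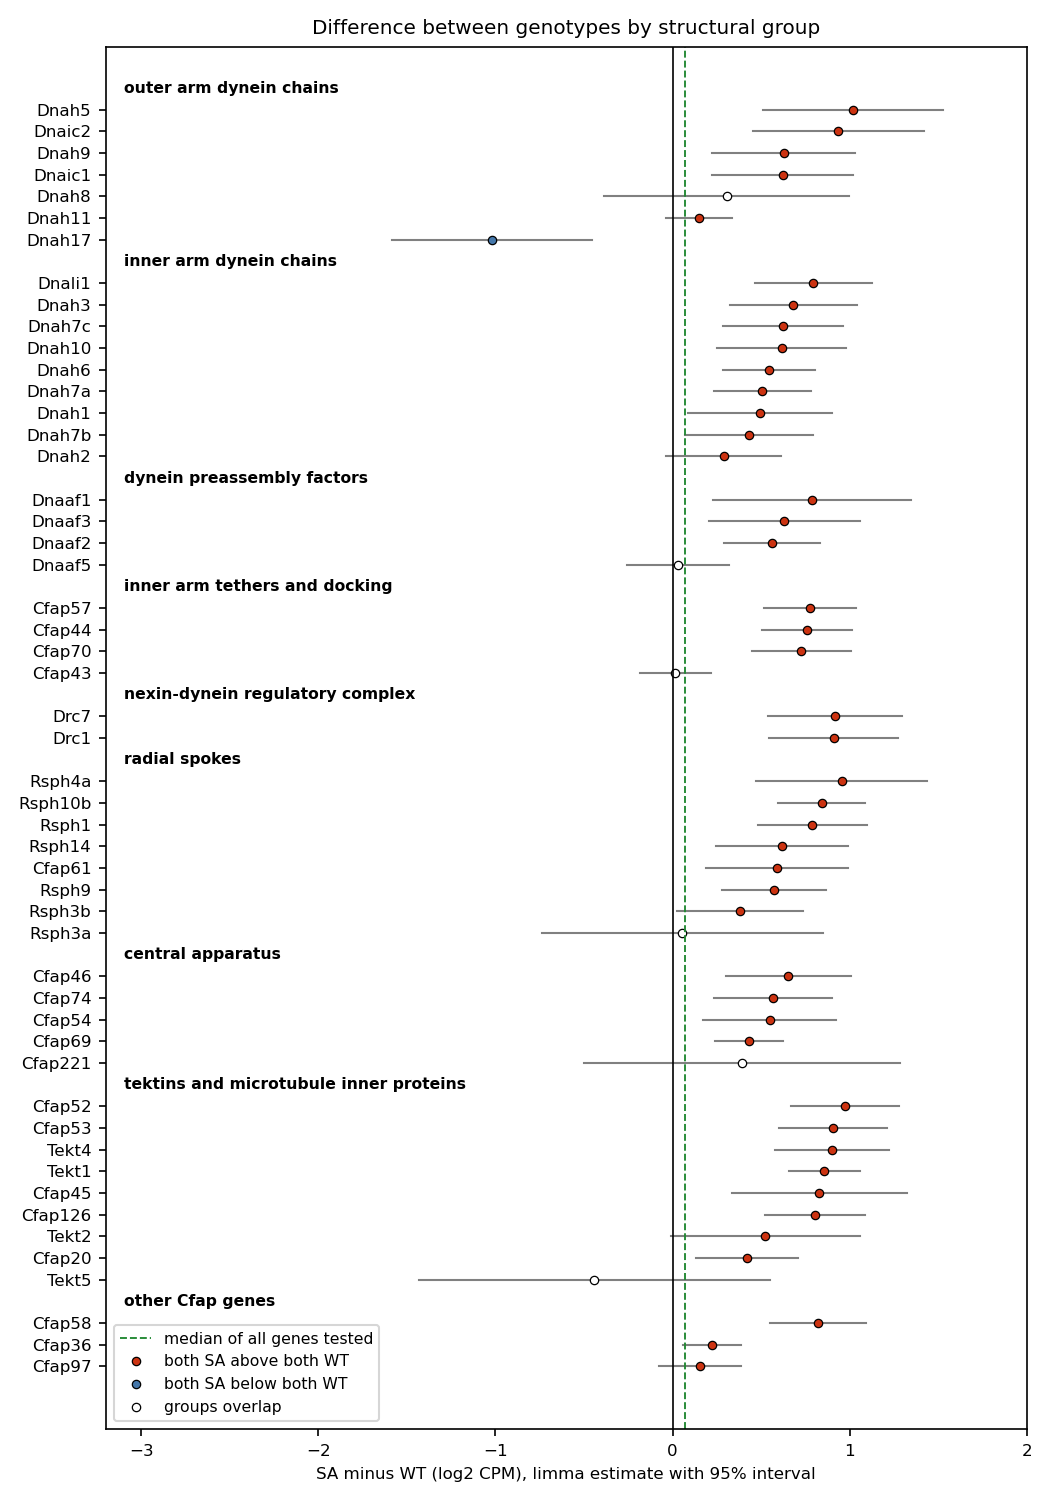
Difference between SA and WT for each of the 51 tested members, in log2 CPM, as the limma estimate (point) with its 95% interval (line), by structural class; the dashed line is the median of all genes tested, 0.07. The points of 49 members lie above 0, and those of Dnah17 and Tekt5 lie below it.

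Genes of the axoneme, or linked to its assembly or control, that have other names were mostly higher in SA too. Here 3 genes passed the threshold narrowly. A further 15 genes have a member-like name in GENCODE M21 and another symbol or none in the table. All of the 13 tested had both SA libraries above both WT libraries, against 38.1% of all genes, with a median of 0.85. At an unadjusted p under 0.05, 12 were higher, against 16.8% of all genes. Among them Drc3, of the nexin-dynein regulatory complex, rose by 0.85 ± 0.07 (adjusted p = 0.0498, limma). A further list, with 48 genes tested, holds axonemal genes and others linked to axoneme assembly, such as Ruvbl1 and Zmynd10. Its median was 0.75. At an unadjusted p under 0.05, 41 were higher in SA, against 16.8% of all genes, and 0 were lower. Nme9 rose by 0.95 ± 0.07 (adjusted p = 0.049, limma) and Dynlrb2, a dynein light chain, by 0.82 ± 0.07 (adjusted p = 0.0498, limma). Dynlrb1, a relative of Dynlrb2, was placed in the list of cytoplasmic dynein and differed by 0.15. All 3 calls were lost with any of the 4 libraries left out (adjusted p of 0.086 to 0.25), with no variance trend and in both voom fits, where the differences stayed positive.

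Partners of the members lay in the same range. Ccdc39 and Ccdc40, which form the molecular ruler that spaces inner arms and spokes, differed by 0.86 and 0.73. Hydin, a central apparatus protein, differed by 0.49. Each had both SA libraries above both WT libraries, and none of the 3 passed (adjusted p of 0.053, 0.065 and 0.14, limma).

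Regulators of multiciliation were less uniform, with a median of 0.28 over 18 genes and 0 past the threshold. At an unadjusted p under 0.05, 8 were higher, against 16.8% of all genes. Foxj1, the transcription factor that switches on motile cilium genes, had 6.14 and 6.41 in WT and 7.16 and 7.17 in SA. Its difference was 0.89 ± 0.10 (adjusted p = 0.053, limma), and its order of libraries matched that of most members. Deup1, which amplifies centrioles, differed by 1.03 and Myb by 1.03. Rfx3 differed by 0.35 ± 0.10 (adjusted p = 0.13, limma) and Rfx2 by 0.06 ± 0.13 (adjusted p = 0.80, limma), with overlapping groups. Ccno differed by 0.56 (adjusted p = 0.19, limma), and Mcidas, with 11 to 35 reads, was under the limit for testing.

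Transport within cilia was measured by 40 genes of intraflagellar transport and the BBSome, which also serve primary cilia. Their median difference was 0.40, with 0 past the threshold. At an unadjusted p under 0.05, 34 were higher and 0 lower, against 16.8% and 9.56% of all genes. Ttc30b and Ift81 differed by 0.69 and 0.59. By contrast, the 18 genes of cytoplasmic dynein and dynactin, the relatives of axonemal dynein that carry cargo in all cells, had a median of 0.01. Of these 10 were higher and 8 lower in SA, and the heavy chain Dync1h1 differed by -0.29 (adjusted p = 0.14, limma).

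**Figure D4:**
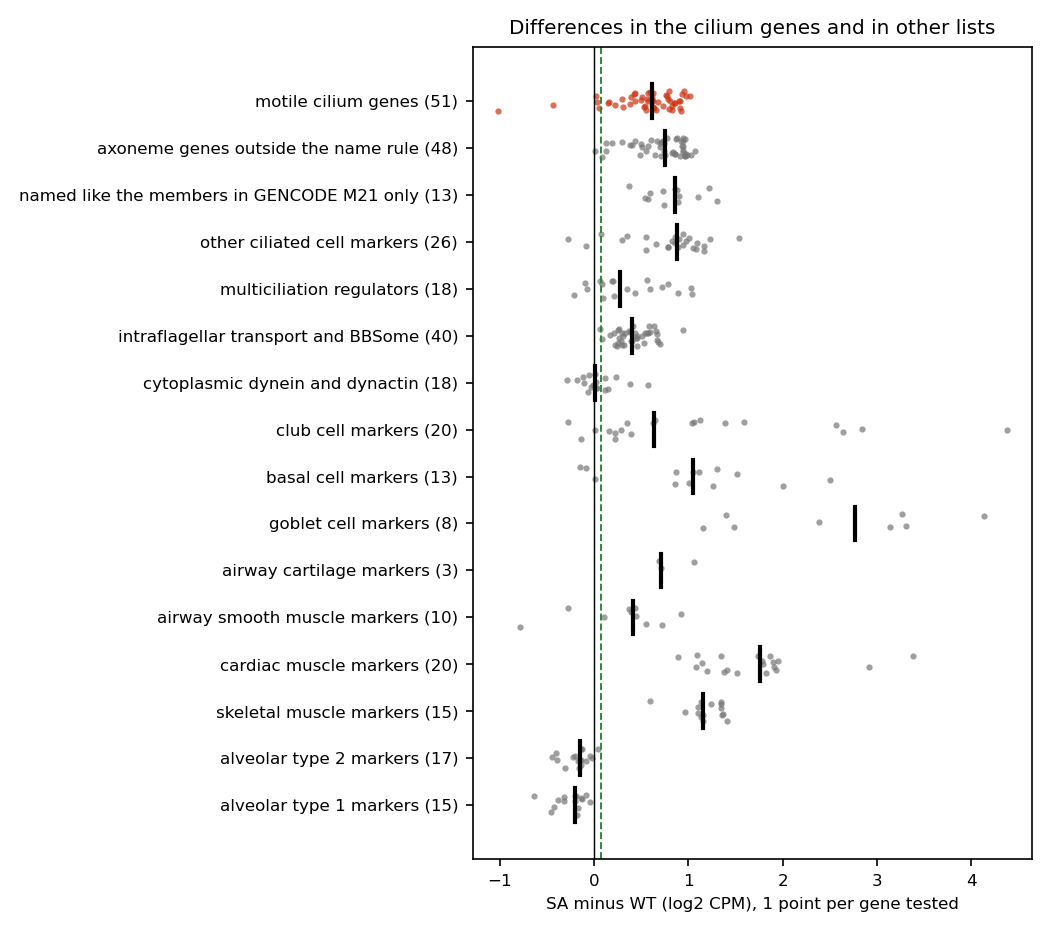
Difference between SA and WT for every tested gene of each list, in log2 CPM, with 1 point per gene, the number of genes in brackets, a bar at the list's median and a dashed line at the median of all genes tested, 0.07. The members and the lists of axonemal and related genes have medians of 0.62 to 0.85, cytoplasmic dynein 0.01, and goblet cell and cardiac markers 2.77 and 1.76.

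Further listed markers of the ciliated cell, some of which also belong to the axoneme, mostly moved the same way. At an unadjusted p under 0.05, 23 of the 26 tested were higher in SA and 1 lower, against 16.8% and 9.56% of all genes. Their median was 0.88, and 0 passed the threshold. Sntn, of the ciliary tip, differed by 1.54, Tmem212 by 0.86 and Ccdc153 by 0.78. Sec14l3, another of these markers, had 10.75 and 10.65 in WT and 10.69 and 10.53 in SA, with overlapping groups, and Tppp3 differed by 0.29.

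Markers of other airway cells also differed between the libraries. Club cell markers, 20 genes, had a median difference of 0.64, and their mean level was 6.63 and 7.62 log2 CPM in WT and 8.09 and 8.28 in SA, while Scgb1a1, their main secreted product, differed by 0.29. The 8 goblet cell markers tested had a median of 2.77, and WT 2 also lay above WT 1 for these, by a median of 2.05. The 13 basal cell markers had a median of 1.05, but 11 of them had overlapping groups. Krt5, a basal keratin, had 3.40 and 5.57 in WT and 5.03 and 6.46 in SA, so its order of libraries was not that of the cilium genes. Neuroendocrine cell markers had a median of 0.44 over 5 genes.

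Markers of cartilage, muscle and alveoli also differed between the libraries. Acan, of cartilage, had 0 and 39 reads in WT and 44 and 180 in SA. Of the cartilage markers, 3 of the 17 listed were tested and had a median of 0.71. Cardiac and skeletal muscle markers had medians of 1.76 over 20 genes and 1.15 over 15, with Myh6 at 1.93 and Acta1 at 1.15. At an unadjusted p under 0.05, all 20 cardiac and 12 of the 15 skeletal markers were higher and 0 were lower. Both SA libraries lay above both WT libraries in all 20 and in 14. The cardiac marker Myh7 passed the threshold, with a rise of 1.95 ± 0.11 (adjusted p = 0.039, limma). Airway smooth muscle markers had a median of 0.41 over 10 genes. Alveolar type 1 and type 2 markers had medians of -0.20 over 15 genes and -0.15 over 17. The part of these differences in tissue content in the values of the cilium genes was not tested.

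**Figure D5:**
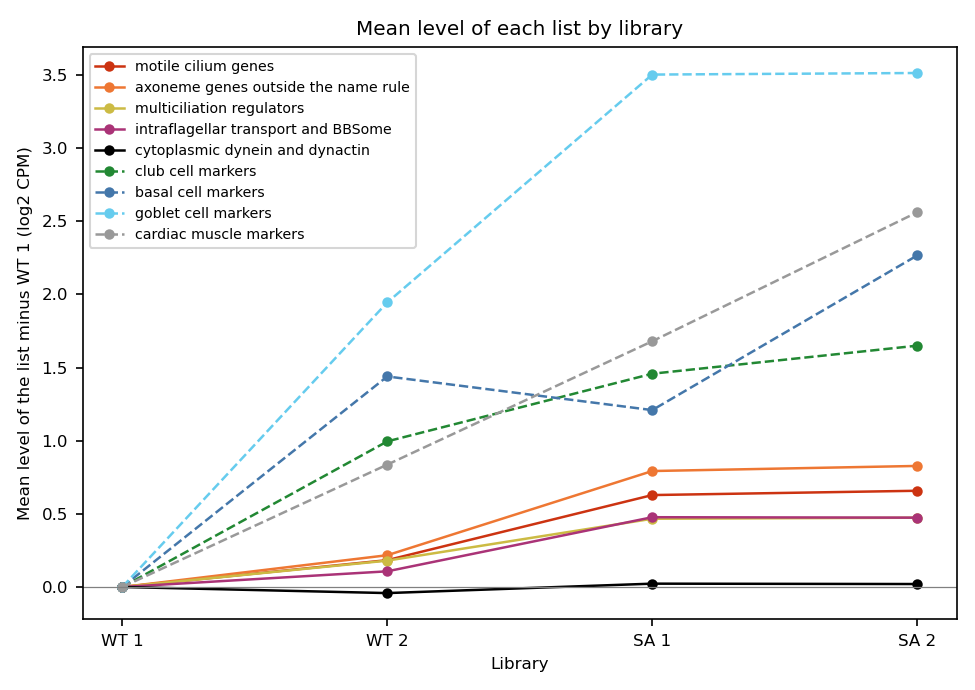
Mean level of each list in each library, in log2 CPM minus the value of WT 1; lines join the points of 1 list and mark no order among the libraries. The cilium genes have mean levels of 3.45 and 3.64 in the WT libraries and 4.08 and 4.11 in the SA libraries, while basal cell markers have 3.34 and 4.78 in WT and 4.55 and 5.61 in SA.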

How the data were processed

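Per the labels' protocols, ribosomal RNA was removed from the lung RNA of the 2 WT and 2 SA samples and strand-specific libraries were prepared. The submitters' processing notes name Subread, featureCounts, limma and GRCm38; for the annotation release, the sources used here give nothing. The authors deposited log2 CPM values in 1 unfiltered and 1 filtered table, and tests used the unfiltered one, with 1 row per Ensembl identifier. From the values, 0.5 reads were added before the log2, and undoing this gave whole reads, within 0.001 read, for 100.0% of genes. Totals and the detection floor are given with the results, and the floor covers counting error only, because these reads carry no molecular identifiers. Pairs of libraries differed by 31.3 or more in chi-square per degree of freedom, so the 4 are different libraries.

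The two-sided test of SA against WT was lmFit with trended eBayes of limma 3.58.1 in R 4.3.3, adjusted by Benjamini-Hochberg over the 15996 genes with a mean of at least 0 log2 CPM. The samples are called biological replicates in the design text, but no label numbers the animals, and the p-values therefore measure only a spread between samples that may be technical. With 2 libraries per group, an exact permutation test cannot give a two-sided p under 0.333, and every p-value depends on the limma fit with its 2 residual degrees of freedom. The deposited unit is log2, and limma voom was run on the recovered reads as an alternative. Other count models were not run. The test was checked on simulated data with the same independent noise for every gene. In the real data, samples with the same number deviated together, so that check does not cover such shared deviations.

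Members, lists and tests were chosen with earlier results of these data known, so no test over the members as a set was made. By the rule for named genes, full statistics go to the highest member of each structural class and to its 3 lowest p-values, and those nearest the limit for testing are named. Dnah9, Dnah11, Dnah8, Myb and Dync1h1 were added after their values were seen, and other members are given by their difference only. Gene positions and exon lengths are from GENCODE M21 on GRCm38, and promoters from RefSeq. Alternatives were a block for the replicate number, the filtered table, other filters, median centring, quantile normalization, 2 reads added, other variance trends, voom, and leaving out each library. Membership by GENCODE M21 names and the set without the shared Cfap43 identifier were chosen after seeing the data. Python 3.11.15, pandas 2.3.3 and numpy 2.4.6 were used for the remaining steps.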

Additional observations from a re-analysis of the deposited data

Results flagged for a closer look

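Tekt3, a tektin that was too low for the main test, was higher in both SA libraries than in both WT libraries, by 0.78 on the log2 CPM scale. It was singled out because a difference in the direction of most members appears in data outside the main test. It had 13 and 14 reads in the WT libraries and 20 and 30 in the SA libraries. Its difference entered a test only in the fits with no filter on low values, which held all 53 members.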

How the results depend on the processing

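The number of members past the threshold was 0 in limma as described, and also 0 with 2 reads added, no variance trend, a filter at a mean of 1, the filtered table, both voom fits and each library left out. It was 14 with a robust trend, against 4.01% of all genes, and 12 with median centring, against 3.77%. With quantile normalization it was 3, where 284 of all 15996 genes passed. With no filter it was 38 (37 higher and 1 lower), against 4.75% of all genes. The cause of these changes was not tested. With members taken by GENCODE M21 names it was 1, which was Drc3, a gene that those names add. The 12 members called under median centring were all among the 14 called with the robust trend.

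The replicate number as a block (replicate block) gave 39 members past the threshold, 38 higher and 1 lower, and 3523 genes in all (2312 higher and 1211 lower). Samples with the same number deviated together (correlation 0.53 over 15996 genes), but the labels do not say what a number shares, so the pairing is a hint from 2 pairs only. The block left the median difference of the members at 0.62.

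Over all genes, 48 passed (26 higher and 22 lower). The count was 642 with a robust trend, 1 with no trend, 603 with median centring (210 higher and 393 lower), 2213 with no filter (1496 higher and 717 lower), 284 with quantile normalization (114 higher and 170 lower), 30 with voom on the recovered reads, and 0 to 5 with a library left out.

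Median centring moved the median difference of all genes from 0.07 to -0.06, and quantile normalization to -0.03. The median of the members was 0.49 and 0.41 under these settings and 0.51 to 0.74 with a library left out. Under median centring and quantile normalization the medians by class were 0.46 and 0.38 for preassembly factors, 0.61 and 0.59 for tethers and docking, 0.47 and 0.39 for radial spokes, and 0.70 and 0.69 for tektins and inner proteins. The central apparatus had 0.33 under quantile normalization and the other Cfap genes 0.089 under median centring. In the filtered table, which holds 40 of the 53 members, preassembly factors had 0.30 and radial spokes 0.82, over fewer genes. With a library left out, the central apparatus had 0.39 to 0.66 and radial spokes 0.53 to 0.72.

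The difference of Cfap43 was -0.118 under median centring, -0.0457 under voom with median-of-ratios scaling, and from -0.0503 (without WT 2) to 0.0797 (without WT 1) with a library left out, with -0.0311 without SA 2. That of Dnaaf5 was -0.102 under median centring, -0.104 under quantile normalization, -0.0165 under voom with median-of-ratios scaling and from -0.0861 (without SA 2) to 0.148 (without SA 1) with a library left out. The other 28 members named by the rule had the same sign in all these settings. Depth limits Tekt3 and Rsph6a, and 2 libraries per group limit every p-value.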

Other observations

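Among genes that are not members, the levels of 8 lay nearest to the mean centred profile of the members. These were Chordc1, Dusp18, Gm7160, Tmem67, Bok, Slc22a18, Klhl8 and Rmnd1. Their root mean square distances were 0.0044 to 0.020 log2 CPM over 4 libraries. None of these 8 genes was in any of the lists. Chordc1, a co-chaperone of HSP90, had levels of 4.98 and 5.16 in WT and 5.60 and 5.63 in SA. Tmem67, a protein of the ciliary transition zone, had 3.76 and 3.96 in WT and 4.38 in both SA libraries. With 4 libraries a close profile is a description only.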
